A study of Mus musculus with 6 samples.

Results

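The miRNAs mir-532, mir-188, mir-362, mir-501 and mir-500 lie together in an intron of Clcn5, and the table of read counts from this series holds an entry for each of the 5 among its 1006 precursor entries. The set was selected on a measured value, the fall of mir-188 in extracellular vesicles (EVs) from C2C12 cells under fluid flow shear stress (FFSS), and the other 4 entries were added for their place in the same gene. The question was whether these 4 neighbours follow mir-188. In EVs of stressed cells (FFSS-Myo-EVs) the mean of mir-188 on the authors' scaling was 0.323 of that in EVs of unstressed cells (Myo-EVs). The ratio on this scaling was 1.06 for mir-532, whose hairpin lies 345 bases away, 1.02 for mir-362, 0.889 for mir-501 and 0.748 for mir-500. The test used another scaling (TMM), on which the log2 fold changes of the 4 lay between -0.53 and -0.027. None of the 4 neighbours passed the test in either direction, beside 30.5% of all entries tested, although mir-501 and mir-500 were called lower without the first Myo-EV library and mir-532 higher without the second.

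Small RNA was sequenced from 6 libraries, 90 ng of total RNA each. Myo-EVs (2 libraries) are vesicles that unstressed C2C12 cells, an established mouse myoblast line, released into the medium, and FFSS-Myo-EVs (2 libraries) are those of C2C12 cells rotated on an orbital shaker. The growth protocol in the labels describes vitamin D and dexamethasone and does not mention FFSS, so the treatment is taken from the sample titles, the stress label and the study's methods. Primary mouse cells gave the other 2, a library from osteoblasts (OB) and another from bone marrow cells (BM), both unstressed. The labels give the mice as C57BL/6J mixed with 129/SvJ, in parts of 81.25% and 18.75%, and repeat this for the EV libraries although C2C12 is a separate line. The labels give an age of 8 to 10 weeks for OB and BM, whereas the methods describe osteoblasts pooled from the calvariae of newborn mice. The C2C12 cells themselves were not among the libraries, so a level in the EVs cannot be set against the level in the cells that released them. In the same way, fewer EVs with a miRNA and fewer copies per EV cannot be told apart.

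The gene Clcn5 encodes ClC-5, a chloride and proton exchanger of endosomes that is best known from the kidney. Its intronic miRNAs are cut by Drosha from the nascent transcript as hairpins, and Dicer then releases the mature arms, named 5p and 3p, which guide Argonaute to target mRNAs through the seed at bases 2 to 8. Hairpins in 1 intron can come from 1 primary transcript, but each is cut and each mature arm is kept or lost on its own. In other work miR-188 has been tied to the choice of bone marrow stromal cells between osteoblasts and adipocytes, and miR-501 to activated satellite cells of muscle.

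The cluster lies on chromosome X of GRCm38 on the minus strand, from 7237683 to 7248497, a span of 10815 bases in the GENCODE M21 annotation. Clcn5 runs from 7153810 to 7319358. Of its 5 annotated transcripts, 3 span the cluster, and no hairpin overlaps an exon of any of them. In the direction of transcription the order is mir-532 (7248402 to 7248497), mir-188 (7247989 to 7248056), mir-362 (7241982 to 7242046), mir-501 (7241243 to 7241351) and mir-500 (7237683 to 7237774). Between neighbours in this order lie 345, 5942, 630 and 3468 bases. The hairpins of mir-532 and mir-188 thus make a pair at the 5′ end, far from the other 3.

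The hairpins of this pair are shown because their entries parted under FFSS although they lie next to each other. The sequences are those of RefSeq for GRCm38, read 5′ to 3′, and capitals mark the mature arms listed there.
mir-532, chrX:7248402-7248497: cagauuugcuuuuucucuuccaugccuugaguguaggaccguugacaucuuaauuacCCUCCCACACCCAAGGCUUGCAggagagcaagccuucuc
mir-188, chrX:7247989-7248056: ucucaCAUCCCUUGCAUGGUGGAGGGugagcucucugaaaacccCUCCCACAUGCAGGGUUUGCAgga

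The RefSeq table gave 9 mature arms for the 5 entries and did not list miR-532-5p. That arm is therefore unmarked in the hairpin above and left out of the seeds below. The 9 arms are shown because reads were counted per hairpin and the arms were not separated. Each entry may thus hold reads of either arm. Capitals mark the seed.
miR-532-3p: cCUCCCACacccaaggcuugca
miR-188-5p: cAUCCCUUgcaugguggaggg
miR-188-3p: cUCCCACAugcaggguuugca
miR-362-5p: aAUCCUUGgaaccuaggugugaau
miR-362-3p: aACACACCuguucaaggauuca
miR-501-5p: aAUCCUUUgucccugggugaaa
miR-501-3p: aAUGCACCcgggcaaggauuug
miR-500-5p: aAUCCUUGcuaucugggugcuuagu
miR-500-3p: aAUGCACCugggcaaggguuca

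The 9 arms carry 7 different seeds. miR-362-5p and miR-500-5p share the seed AUCCUUG, and miR-501-3p and miR-500-3p share AUGCACC. Neither arm of mir-188 has a seed in common with another of the 9. The longest stretch shared by 2 hairpins of the cluster was 14 bases, between mir-501 and mir-500, followed by 10 bases between mir-532 and mir-188. No other RefSeq hairpin shared more than 12 bases with a member. The stretches are shorter than a mature arm, of which the shortest here has 21 bases.

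Outside the cluster, 2 entries of the table have a RefSeq mature arm with the seed of 1 of these 9 arms. These are mir-329, through miR-362-3p, and mir-7061, through miR-188-5p. The normalized expression value of mir-329 was 3145.1 in OB, 1.2 in 1 Myo-EV library and 0 in the other 4 libraries. That of mir-7061 was at most 3.6 in any library.

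The total count was between 2414132 and 3029524 in the EV libraries, 5181296 in OB and 6092460 in BM, and the 5 entries took between 0.0774% (OB) and 0.497% (BM) of it. Levels are given as the authors' normalized expression value, the read count multiplied by 1 constant per library. Intervals of single libraries are exact Clopper-Pearson 95% intervals, and they cover counting error only because the reads carry no molecular identifiers. The 7 blood cell entries (mir-142a, mir-144, mir-150, mir-223, mir-451a, mir-486a and mir-486b) summed to 21209.6 in BM and to between 170.6 and 319.3 in the other libraries, with mir-144 and mir-223 at 0 in the second Myo-EV library. The 6 muscle entries (copies of mir-1a and mir-133a, mir-133b and mir-206) summed to between 2052.9 and 2641.9 in the EVs, 118.9 in OB and 71.9 in BM. In the EVs this sum was nearly all mir-206, while mir-1a-1 was at 0 in all 4 EV libraries, mir-1a-2 in the second FFSS-Myo-EV library and mir-133b in BM. The 7 mesenchymal entries (among them mir-143, mir-145a, mir-199a and mir-214) were the highest of the 3 lists in all 6 libraries, from 37863 in BM to 575188.3 in OB. In the EVs the muscle list stood at 2052.9 and 2446.9 without FFSS, against 2641.9 and 2625.9 with it, and the blood list at 170.6 and 236.0, against 260.1 and 245.9. In the test across entries described further on, 3 of the 4 muscle entries tested were lower in FFSS-Myo-EVs, namely mir-133a-1, mir-133a-2 and mir-133b (log2 fold changes -1.49, -1.92 and -1.75), while mir-206 was at 0.15 (adjusted p = 0.420 in edgeR). Of the 3 blood cell entries tested 1 was higher (mir-451a), and of the 7 mesenchymal entries 1 was higher (mir-199b) and 1 lower (mir-140). The mean of mir-451a was 3.9 in Myo-EVs and 21.8 in FFSS-Myo-EVs, so that it was tested only through its level with FFSS. The mean of mir-133a-1 was 19.15 in Myo-EVs and 7.2 in FFSS-Myo-EVs, and that of mir-133a-2 was 18.75 and 5.2. Both copies of mir-133a were thus tested only through their level without FFSS. As copies they may share reads, so that they are uncertain as separate entries. Beside these counts of called entries, 12.1% of all tested entries were higher and 18.4% lower. The part of the muscle, blood cell and mesenchymal entries in the results was not tested.

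Without FFSS the level of mir-188 in the EVs was 332.3 (95% interval 297.4 to 370.1, 331 counts) and 319.8 (282.6 to 360.5, 267 counts). With FFSS it was 95.6 (77.5 to 116.8, 96 counts) and 115.2 (94.1 to 139.6, 104 counts). The replicates of a group thus lay within each other's counting error, and the groups did not overlap. The mean was 326.0 ± 8.8 (SD, n = 2) in Myo-EVs and 105.4 ± 13.8 (SD, n = 2) in FFSS-Myo-EVs. BM lay below all EV libraries with 45.3 (37.3 to 54.4, 114 counts), and OB had a single read, a level of 0.6 (0.014 to 3.1).

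Beside it, mir-532 had the most reads of the cluster in every library. Its level was 2805.7 (95% interval 2702.7 to 2911.6) and 3663.7 (3535.1 to 3795.8) in the unstressed Myo-EVs, against 3456.8 (3342.8 to 3573.7) and 3425.5 (3305.9 to 3548.4) under FFSS. Both FFSS-Myo-EV libraries fell between the 2 Myo-EV libraries, which differed by more than their counting error. BM was highest with 7988.9 (7879.1 to 8099.9) and OB lowest with 1499.4 (1443.5 to 1556.8).

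The level of mir-362 was 368.4 and 376.1 in the EVs without FFSS, against 397.5 and 362.2 with it. It was 376.6 (95% interval 348.9 to 406.0) in OB, inside the range of the EV libraries. Only BM stood apart, with 1586.3 (1537.5 to 1636.3).

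The level of mir-501 was 516.0 (95% interval 472.3 to 562.6) and 659.9 (606.0 to 717.4) in EVs without FFSS, against 520.0 (476.4 to 566.6) and 525.0 (478.8 to 574.4) with it. As for mir-532, the Myo-EV libraries differed by more than their counting error, and both FFSS-Myo-EV libraries lay between them. BM was above with 2304.4 (2245.6 to 2364.5) and OB below with 322.5 (296.9 to 349.8).

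The entry mir-500 had the fewest reads of the 5 in the EV libraries. Its level was 58.2 (58 counts) and 94.6 (79 counts) without FFSS, against 46.8 (47 counts) and 67.6 (61 counts) with it, and the groups overlapped. The level of 102.1 in BM (95% interval 90.0 to 115.3) was not distinguishable from that of the second Myo-EV library (74.9 to 117.9) by counting error. OB was lowest with 16.6 (11.2 to 23.7).

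**Figure D1:**
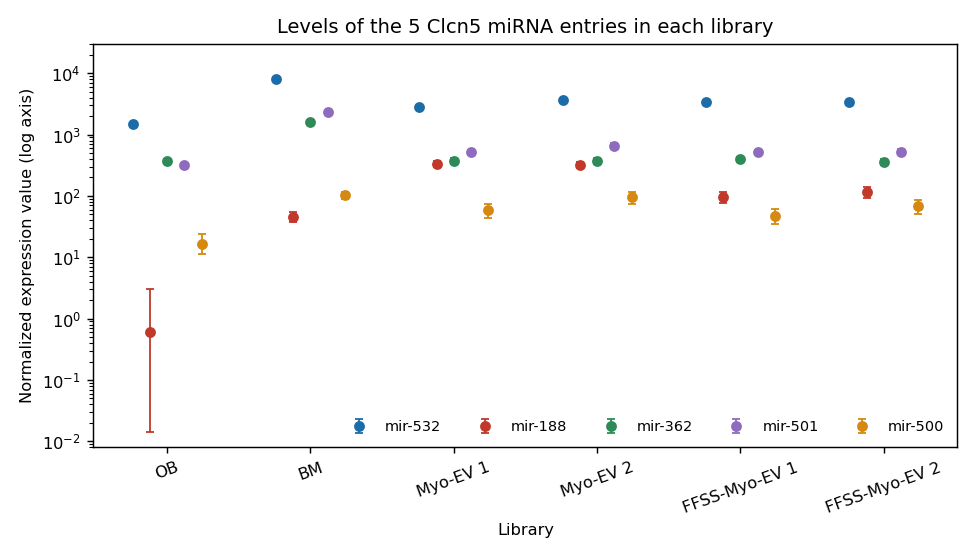
Normalized expression value (log axis) of the 5 entries in each of the 6 libraries, with exact 95% intervals of counting error as bars. mir-188 (red) stands at 332.3 and 319.8 without FFSS, at 95.6 and 115.2 with it, and OB holds 1 read of it, whereas the other 4 entries are highest in BM and overlap between the EV groups.

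Over the 4 conditions, mir-532, mir-362, mir-501 and mir-500 had in common that BM was at the top, between 4.21 and 7.15 times OB, although for mir-500 the lead of BM over the highest EV library was within counting error. The exception was mir-188, which was higher in every EV library than in BM, 7.20 times in the mean of Myo-EVs and 2.33 times in that of FFSS-Myo-EVs. The mean over the 4 EV libraries was 4.76 times BM for mir-188 (95% interval 3.97 to 5.78 from the counts in BM) and between 0.237 times BM (mir-362) and 0.654 times BM (mir-500) for the others. Relative to OB, the EV mean was 2.23 times for mir-532, 0.998 times for mir-362, 1.72 times for mir-501 and 4.03 times for mir-500. For mir-188 the ratio to OB was 391, or 590 for Myo-EVs and 191 for FFSS-Myo-EVs, and rests on 1 read in OB, which alone allows 70.1 to 15428 for the first. OB and BM are 1 library each, so that these ratios have no replicate check and no test. The summed level of the 5 entries was 2215.7 in OB, 12027.0 in BM, 4080.6 and 5114.1 in the EVs without FFSS, against 4516.7 and 4495.5 with it. The sum therefore did not separate the EV groups.

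The count of mir-188 set against that of its neighbours in the same library does not depend on the scaling between libraries. For 100 reads of mir-532 there were 11.8 and 8.73 reads of mir-188 without FFSS, against 2.77 and 3.36 with it. BM held 0.567 and OB 0.0368. The ratio was thus higher in all 4 EV libraries than in both cells, and higher in both Myo-EV libraries than in both FFSS-Myo-EV libraries. The log2 change of this ratio, FFSS-Myo-EVs over Myo-EVs, was -1.74 against mir-532 (pooled SD between replicates 0.26), -1.66 against mir-362 (0.21), -1.48 against mir-501 (0.24) and -1.23 against mir-500 (0.40). These values describe the fall that selected the set and were not tested.

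As a share of the reads of the 5 entries, mir-188 was 8.14% (95% interval 7.32% to 9.03%) and 6.25% (5.55% to 7.02%) in Myo-EVs. The share was 2.12% (1.72% to 2.58%) and 2.56% (2.10% to 3.10%) in FFSS-Myo-EVs, 0.376% (0.311% to 0.452%) in BM and 0.0249% (0.00063% to 0.139%) in OB. The share of mir-532 was 68.8% and 71.6% without FFSS, 76.5% and 76.2% with it, 67.7% in OB and 66.4% in BM. In the cells, mir-362 and mir-501 took a larger part than in the EVs. The share of mir-362 was 17.0% in OB, 13.2% in BM and from 7.35% to 9.03% in the EV libraries. That of mir-501 was 14.6% in OB, 19.2% in BM and from 11.5% to 12.9% in the EV libraries. For mir-501 the 95% interval of OB (13.5% to 15.7%) overlapped those of the Myo-EV libraries (11.6% to 13.7% and 11.9% to 13.9%). Adapter ligation favours some small RNAs over others. The order of the entries within a library is therefore an order of reads only, and the shares are compared between libraries.

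**Figure D2:**
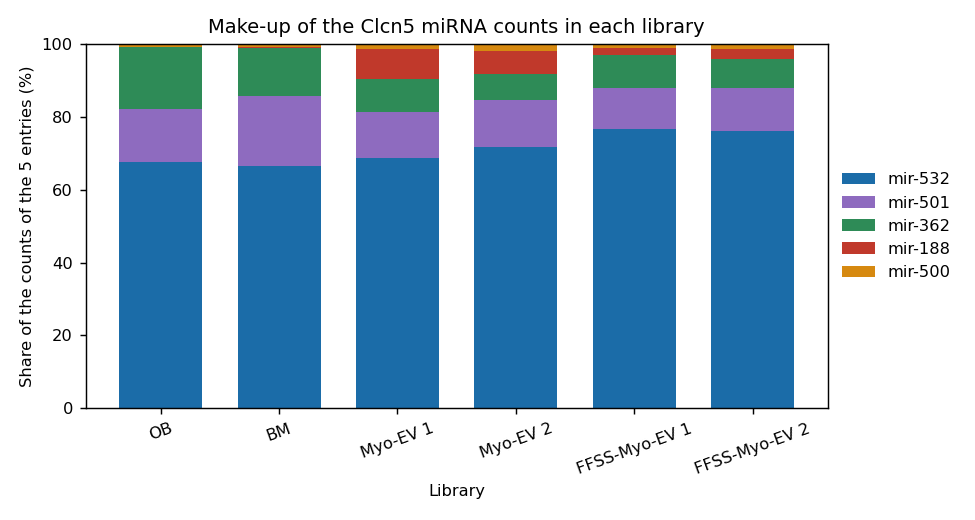
Share of each of the 5 entries in their summed reads, in percent, for each library (stacked bars, each adding to 100%). The part of mir-188 (red) is 8.14% and 6.25% without FFSS, against 2.12% and 2.56% with it, and it is hardly visible in OB and BM, while mir-532 makes up the bulk in all 6.

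For the change under FFSS, the counts of the 4 EV libraries were tested with edgeR's quasi-likelihood test over the 354 entries whose normalized level averaged 10 or more in these libraries. The Benjamini-Hochberg adjustment took in all 354. All 5 members were among the entries tested. At an adjusted p under 0.05, 30.5% of the tested entries were called, 12.1% higher and 18.4% lower in FFSS-Myo-EVs. With the authors' scaling in the same test, 54 were higher and 39 lower, in place of 43 and 65. Of the 4 neighbours of mir-188, 0 were called in either direction, and 1 (mir-501) had an unadjusted p under 0.05. Beside 30.5%, a count of 0 of 4 is no sign that the neighbours differ from other entries. Whether the libraries come from separate cultures is not stated, and the p-values measure the spread between these libraries only. The fit took this spread from entries of similar level and gave the replicates of a single entry no weight of their own. The differences between the Myo-EV libraries in mir-532 and mir-501 are therefore not reflected in their standard errors, intervals or p-values.

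The log2 fold change of mir-188, FFSS-Myo-EVs over Myo-EVs, was -1.76 (standard error 0.21), the 4th lowest of the 354. No p is given for it because the set was chosen by this value. For the same reason its standard error and place are a description only. The median over all tested entries was -0.025, and that of the 4 neighbours was -0.19. For mir-532 the log2 fold change was -0.027 (standard error 0.13, 95% interval -0.28 to 0.22, adjusted p = 0.922 in edgeR). For mir-362 it was -0.092 (standard error 0.16, -0.40 to 0.22, adjusted p = 0.748 in edgeR). For mir-501 it was -0.29 (standard error 0.14, -0.56 to -0.013, unadjusted p = 0.0403 and adjusted p = 0.109 in edgeR). For mir-500, the entry with the fewest reads, it was -0.53 (standard error 0.31, -1.14 to 0.08, adjusted p = 0.196 in edgeR). A fall of up to 0.28 on the log2 scale in mir-532, or of up to 1.14 in mir-500, is within them.

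**Figure D3:**
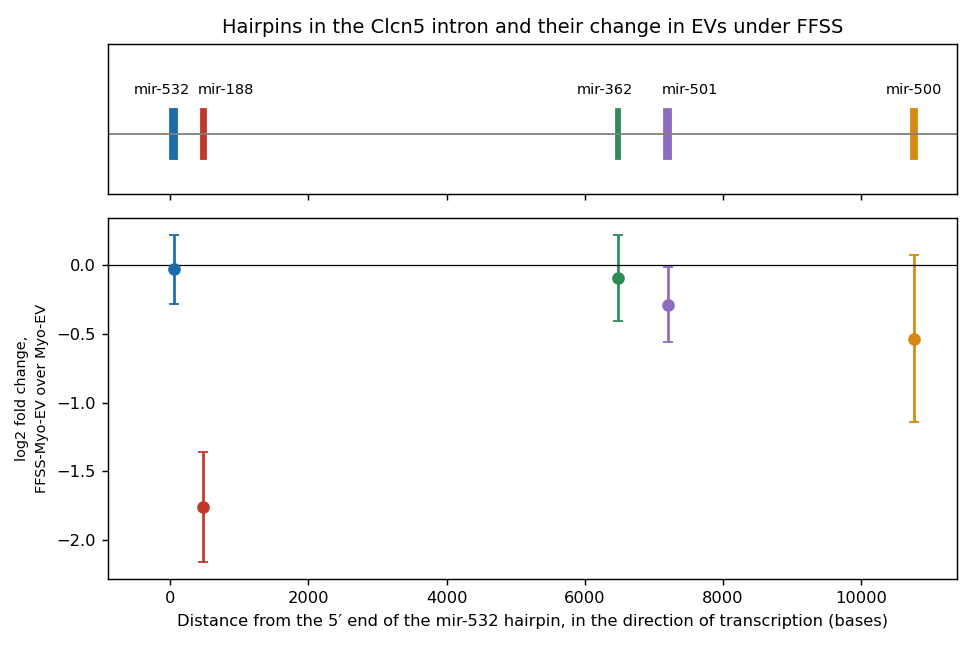
Upper panel, the 5 hairpins to scale along the Clcn5 intron, by their distance in bases from the 5′ end of mir-532 in the direction of transcription. Lower panel, log2 fold change of each entry (FFSS-Myo-EV over Myo-EV) with its 95% interval from edgeR. The interval of mir-188 is no test, because the set was chosen by its fall. The point of mir-188 is at -1.76, and that of mir-532 beside it at -0.027.

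**Figure D4:**
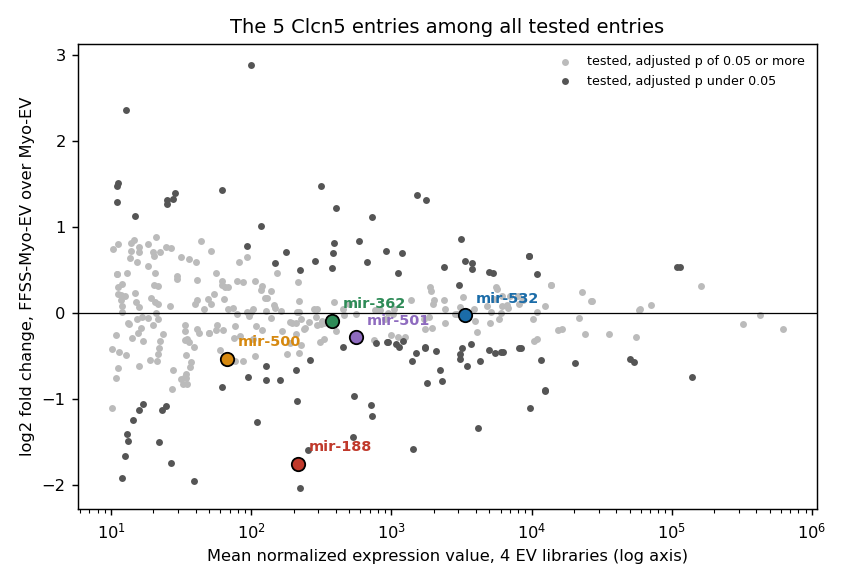
Log2 fold change (FFSS-Myo-EV over Myo-EV) against mean normalized expression value over the 4 EV libraries (log axis) for the 354 tested entries, dark grey where the adjusted p was under 0.05. mir-188 lies at the lower edge of the cloud at -1.76, and the other 4 members lie between -0.53 and -0.027.

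On the authors' scaling, the groups did not overlap in 23.7% of the tested entries with FFSS-Myo-EVs below, and in 36.7% with FFSS-Myo-EVs above. Of the 4 neighbours, 0 were separated in either way. The authors' scaling placed FFSS-Myo-EVs higher than TMM did by a median of 0.12 on the log2 scale over the tested entries. With TMM factors, which set the libraries on a common scale through the bulk of the miRNAs, mir-501 and mir-500 were also lower in each library with FFSS than in either without. For mir-500 the nearest values with these factors were 21.6 without FFSS (58 counts) and 21.3 with it (61 counts), a step well within counting error. On that scale the groups did not overlap in 32.5% of the tested entries with FFSS-Myo-EVs below, and in 26.0% with FFSS-Myo-EVs above, so that 2 of 4 below is read against 32.5%. The fold changes of mir-501 and mir-500 were negative under all scalings tried, whereas mir-532 turned from -0.027 with TMM factors to 0.090 with the authors' scaling and mir-362 from -0.092 to 0.030. That of mir-188 was between -1.82 and -1.55 in all 15 alternatives.

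The calls of the neighbours depended on single Myo-EV libraries. Without the first Myo-EV library, mir-501 (log2 fold change -0.40, adjusted p = 0.0193 in edgeR) and mir-500 (-0.80, adjusted p = 0.0167 in edgeR) were called lower, beside 20.3% of all tested entries called lower in that fit. Without the second, mir-532 was called higher (0.21, adjusted p = 0.0438 in edgeR), while mir-501 was at -0.065 and mir-500 at -0.12, beside 16.4% of all tested entries called higher. In either fit a single Myo-EV library is left, which is assumed to vary like the FFSS-Myo-EV pair. Over all 15 alternatives, the adjusted p in edgeR, limma or DESeq2 ranged from 0.0438 to 0.990 for mir-532, from 0.549 to 0.957 for mir-362 and from 0.0193 to 0.703 for mir-501. It ranged from 0.0167 to 0.805 for mir-500 in the 14 that tested it.

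**Figure D5:**
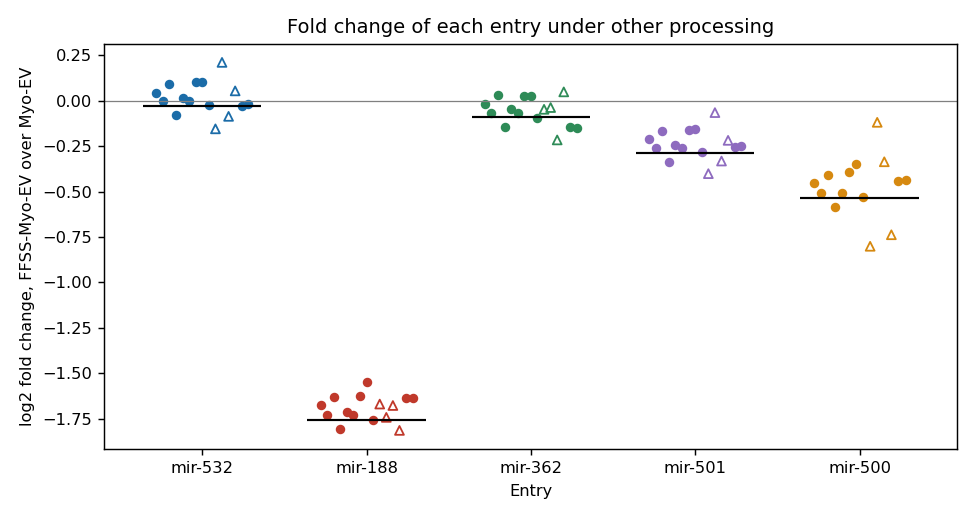
Log2 fold change of each entry (FFSS-Myo-EV over Myo-EV) as reported (black line), under other scalings, filters, tools and corrections (filled circles), and with 1 EV library left out (open triangles). mir-188 stays between -1.82 and -1.55, apart from the other 4, whose values reach from -0.80 to 0.21.

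The hairpin of mir-188 had the highest GC content of the 5, with 55.9%, against 53.3% for mir-500, 50.5% for mir-501, 49.0% for mir-532 and 46.2% for mir-362. Of the 330 tested entries with a hairpin sequence, 73.9% had a lower GC content than mir-188. After a correction for hairpin GC content in each library, the log2 fold change of mir-188 was -1.63. Of the 4 neighbours 0 were called, beside 100 of all 330 entries in that fit. A correction for the GC content of the mature arms was not made. The hairpins were 96 (mir-532), 68 (mir-188), 65 (mir-362), 109 (mir-501) and 92 bases long (mir-500), with predicted folding energies from -46.9 kcal/mol for mir-501 to -28.5 kcal/mol for mir-362.

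Over all 6 libraries, the profile of mir-188 was unlike those of mir-362 and mir-501 and more like that of mir-500. Pearson's r of log2(normalized expression value + 1) was 0.94 between mir-532 and mir-501, 0.94 between mir-501 and mir-362 and 0.87 between mir-532 and mir-500, and the lowest of the 6 pairs without mir-188 was 0.44 between mir-362 and mir-500. With mir-188, r was 0.80 for mir-500, 0.48 for mir-532, 0.24 for mir-501 and -0.10 for mir-362. Among 442 entries compared, the best placed member was in place 3 for mir-532, 13 for mir-501 and mir-500, and 32 for mir-362. For mir-188 it was mir-500 in place 95. By likeness to mir-500, however, mir-188 was in place 25, before mir-501 (35) and mir-362 (107). The correlations with mir-188 include the EV values that selected the set and its single read in OB. These correlations describe 6 libraries, 4 of them EVs of 1 cell line, on the authors' common scaling, and how far they rest on OB and BM was not tested.

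The 3 entries most like mir-188 were mir-324 (r = 0.99), mir-8112 (0.98) and mir-92a-1 (0.98). The level of mir-324 was 96.6 in OB, 276.0 in BM, 678.6 and 716.2 in EVs without FFSS, against 339.7 and 439.7 with it. That of mir-8112 was 13.8 in OB, 64.3 in BM, 138.5 and 166.5 in EVs without FFSS, against 68.7 in both libraries with it. That of mir-92a-1 was 2891.0 in OB, 8807.9 in BM, 10904.6 and 12425.9 in EVs without FFSS, against 10117.4 and 10348.6 with it. Like mir-188, the 3 had their lowest value in OB and their highest values in Myo-EVs, but the step to FFSS-Myo-EVs was smaller than that of mir-188, with log2 fold changes of -0.97, -1.27 and -0.31. They were picked by their likeness in these libraries, so that their values are a description.

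For mir-532 the most similar entries were mir-20b (0.98), mir-760 (0.98) and mir-501 (0.94). For mir-362 they were mir-128-1 (0.996), mir-338 (0.995) and mir-652 (0.990), of which mir-338 was at 0 in all 4 EV libraries. For mir-501 they were mir-378a (0.998), mir-1198 (0.988) and mir-486a (0.985). For mir-500 they were mir-1947 (0.98), mir-10a (0.95) and mir-146b (0.94).

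The other miRNAs of chromosome X were taken as a wider list. The table holds 66 such entries, 41 of which were tested, and 8 were called higher and 9 lower in FFSS-Myo-EVs, beside 12.1% and 18.4% of all tested entries. Their median log2 fold change was -0.058, beside -0.025 over all tested entries. The 9 lower ones were mir-351, mir-503, mir-470, mir-741, mir-881 and 4 copies of mir-465, and the 8 higher ones were mir-221, mir-224, mir-452, mir-374b, mir-3473a, mir-871, mir-883a and let-7f-2. The near-identical copies of mir-465 may share reads, so that they are uncertain as separate entries.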

How the data were processed

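Per the methods, the authors grouped the reads by sequence in CLC Genomics Workbench 10.1.1, matched the groups to miRBase and deposited 1 count per precursor entry and library. The normalized expression value is a signal that the authors obtained by scaling these counts. Counts were brought to a total of 1000000 and then scaled by trimmed means (trimming percentage 5), so that each value equals the count times 1 constant per library. The submitters' processing notes name mm10. The miRBase release, the mismatches allowed and the handling of reads with several matches are not given in the sources used here.

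Counts of the 4 EV libraries were fitted in edgeR 4.0.16 (R 4.3.3) with TMM factors, estimated dispersions and the quasi-likelihood test, without covariates, for entries averaging 10 or more on the normalized scale. Alternatives used limma 3.58.1 on the authors' normalized values with pseudocounts of 1 and 10, DESeq2 1.42.0, other scalings and filters. Others took the replicate number as a block or left out each EV library in turn. A correction for hairpin GC content (loess, span 0.75) was added after the values were seen. The fit was also run on counts simulated from its own model with its common dispersion, which cannot show whether that model holds for these libraries. Intervals were computed with scipy 1.17.1 and folding energies with RNAfold 2.7.2.

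Positions are from GENCODE M21 and sequences from RefSeq (GRCm38). A RefSeq hairpin was matched by name to 773 of the 1006 entries, and a hairpin for GC content to 963. The text names the members, the 3 entries most like each (mean of at least 10 over 6 libraries), entries that share a seed, and called entries of chromosome X. The members and lists were chosen with earlier results of these data known.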

Additional observations from a re-analysis of the deposited data

How the results depend on the processing

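The main counts were 43 higher and 65 lower entries. With the authors' scaling 39 were lower, and with limma 37 at either pseudocount. The limma fits used the authors' normalized values, so they share that scaling and are no separate check of it. With each EV library left out in turn, from 44 to 132 entries were called (19 to 60 higher, 21 to 72 lower), 44 without the first and 45 without the second FFSS-Myo-EV library, and from 0 to 2 of the 4 neighbours of mir-188. The group left with 1 library was assumed to vary like the other. The log2 fold change of mir-188 moved to -1.63 with the authors' scaling, -1.63 and -1.55 with limma at pseudocounts of 1 and 10, and -1.63 with the GC correction, without or with the replicate block. That of mir-532 turned positive, at 0.045 with library totals, 0.090 with the authors' scaling, 0.018 with a mean of at least 100 and 0.10 with limma at both pseudocounts, and ran from -0.15 to 0.21 with a library left out. That of mir-362 was 0.030 with the authors' scaling and 0.028 and 0.027 with limma at pseudocounts of 1 and 10, and ran from -0.22 to 0.049 with a library left out. The mean of the 5 entries summed in the EVs was 2.05 times OB and 0.378 times BM, and 1.75 times OB with median-of-ratios scaling and 0.312 times BM in CPM. The cause of these shifts was not tested.

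With the replicate number as a block, 110 of the 354 tested entries were called, with 0 of the 4 neighbours among them. The block changed no call of a member. Deviations from the group means correlated at 0.20 between libraries of the same number. With 2 numbers this does not show a pairing. At the depth of mir-500, with 47 to 79 reads per EV library, the standard error of the log2 fold change was 0.31, the largest of the 5, and the entry was not tested with a mean of at least 100.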
